A study of Homo sapiens with 6 samples.

Results

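The desmosome genes examined here were 10 of the 58884 genes in an RNA-seq table of human esophageal squamous cell carcinoma (ESCC) cells, found by their symbols, each of which occurred once. They were DSG2, DSG3, DSC2 and DSC3, which encode desmosomal cadherins, JUP, PKP1, PKP2 and PKP3, which encode armadillo proteins of the plaque, DSP, which encodes desmoplakin, and PERP, which encodes a tetraspan membrane protein. The parental line was KYSE70, an established ESCC line with a mutant NFE2L2 gene (NRF2 W24C). NRF2null-KYSE70 was its derivative, grown out from 1 clone in which CRISPR-Cas9 had cut NFE2L2, which encodes the transcription factor NRF2. The study reports that some NRF2 remained in this clone, as a faint smaller protein band and shorter transcripts. For both lines 3 libraries were made from cells that received no treatment, 6 in all. Any difference therefore sets a single clone against its parental line, and no source used here says that the libraries of a line came from separate cultures, so p-values measure only the spread between these libraries.

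Desmosomes are the junctions that hold neighbouring epithelial cells together under mechanical stress. Desmogleins and desmocollins from facing cells bind each other outside the membrane. Inside it, plakoglobin (JUP) and the plakophilins (PKP1 to PKP3) sit on the cadherin tails, and desmoplakin ties this plaque to the keratin filaments. DSG3, DSC3 and PKP1 are typical of stratified squamous epithelium such as the esophageal lining, whereas DSG2, DSC2 and PKP2 are the common forms of simple epithelium. PERP is a known target of p53 and of the squamous factor p63, and is needed for stable desmosomes in stratified epithelium.

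Compared with KYSE70, the clone had lower counts of 8 of the 10 genes and higher counts of 2, and in none of them did the change reach a log2 value of 1. All 10 had an adjusted p under 0.05 in the main test (limma). Of all genes tested, 28.3% were lower and 29.3% higher by the same threshold. The largest falls were in PKP1 and DSG3, to 58.4% and 60.0% of the parental level. PKP2 rose to 128%, and DSP had the highest mean count of the 10 with a difference that did not hold under several alternatives. The fall in DSG2, to 92.0%, lost its call in 7 of 17 alternatives. The ratio of the squamous form to its simple-type relative was lower in every library of the clone for DSG3 over DSG2 and for PKP1 over PKP2, whereas the ratio of DSC3 to DSC2 overlapped between the lines.

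Promoter sequences are shown for some of the genes whose differences are compared below. DSG3 and DSG2 are neighbours with unlike changes, DSC3 and PERP fell and held a searched motif, and PKP1 had the largest fall. DSC2 also fell and held a searched motif, the E2-box, but its window is not printed. They came from RefSeq on GRCh38.p14 and ran from 250 bases before the transcription start to 50 after it, written along the gene's strand. Of the 10 genes, 8 were in the table (PKP2 and PKP3 were not), and for DSC2 and JUP, which had 2 entries each, the first was used. Capitals mark a motif found on either strand. The p53-family site stands here for a single half-site, not a full element.
DSG3, chr18:31447491-31447790, plus strand, with the match to the p53-family site in capitals: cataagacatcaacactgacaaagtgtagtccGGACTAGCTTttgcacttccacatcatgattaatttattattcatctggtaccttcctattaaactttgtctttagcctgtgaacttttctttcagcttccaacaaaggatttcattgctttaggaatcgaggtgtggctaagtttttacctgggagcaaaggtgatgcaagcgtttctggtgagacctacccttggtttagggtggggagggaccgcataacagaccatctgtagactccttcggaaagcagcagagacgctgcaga
DSG2, chr18:31497927-31498226, plus strand, with matches to the E2-box in capitals: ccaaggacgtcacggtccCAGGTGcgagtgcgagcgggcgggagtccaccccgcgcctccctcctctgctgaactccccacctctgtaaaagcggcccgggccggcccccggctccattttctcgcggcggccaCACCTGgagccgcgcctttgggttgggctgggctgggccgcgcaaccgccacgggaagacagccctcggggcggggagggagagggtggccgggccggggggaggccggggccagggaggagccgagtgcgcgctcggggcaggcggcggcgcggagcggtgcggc
DSC3, chr18:31042693-31042992, minus strand, with the match to the p53-family site in capitals: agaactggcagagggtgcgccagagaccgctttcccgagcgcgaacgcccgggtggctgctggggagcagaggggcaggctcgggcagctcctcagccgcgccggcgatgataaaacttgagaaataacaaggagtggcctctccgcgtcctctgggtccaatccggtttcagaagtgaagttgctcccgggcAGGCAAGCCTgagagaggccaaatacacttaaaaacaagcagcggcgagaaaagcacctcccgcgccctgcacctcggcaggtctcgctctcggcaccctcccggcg
PERP, chr6:138107370-138107669, minus strand, with the match to the AP-1 motif in capitals: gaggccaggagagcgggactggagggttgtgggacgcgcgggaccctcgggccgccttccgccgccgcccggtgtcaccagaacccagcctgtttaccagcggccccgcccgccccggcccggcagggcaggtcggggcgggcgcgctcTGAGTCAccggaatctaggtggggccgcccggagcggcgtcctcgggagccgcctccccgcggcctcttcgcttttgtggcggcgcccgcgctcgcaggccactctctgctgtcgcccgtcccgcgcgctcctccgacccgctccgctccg
PKP1, chr1:201283256-201283555, plus strand, with no match to the motifs searched: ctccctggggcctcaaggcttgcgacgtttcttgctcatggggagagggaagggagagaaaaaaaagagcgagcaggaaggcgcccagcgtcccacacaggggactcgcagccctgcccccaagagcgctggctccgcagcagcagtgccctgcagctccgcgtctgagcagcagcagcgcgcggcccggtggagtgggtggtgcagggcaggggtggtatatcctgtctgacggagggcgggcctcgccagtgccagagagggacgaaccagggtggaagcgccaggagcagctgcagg

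Motifs were searched on both strands in these windows and in all 35093 RefSeq promoters of the same length. The core of the antioxidant response element bound by NRF2 (TGACNNNGC) was in none of the 8 desmosome promoters, against 13.4% of all promoters. The AP-1 motif (TGANTCA), which can share bases with that core, was in 1 of the 8, PERP, at positions -101 to -95 from the start, and in 7.71% of all. The E2-box (CAGGTG), read by repressors such as SNAI2 and ZEB1, was in 3 of the 8 (DSC2, DSG2 and DSP) and in 20.6% of all. The p53-family site, searched as a single degenerate half-site of 10 bases, was in 2 of the 8 and in 6.64% of all. In DSC3 the matched letters were AGGCAAGCCT at positions -57 to -48 relative to the start, and in DSG3 they were GGACTAGCTT at -218 to -209. These matches describe letters only and were not tested for binding. The DSG3 window was the poorest in G and C, at 44%, against 60.7% to 77.0% in the other 7 and a median of 58.7% over all promoters.

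Libraries held between 52072801 and 63975313 reads assigned to genes, and the deepest held 1.23 times the reads of the shallowest. No library repeated another, since chi-square per degree of freedom was between 4.75 and 25.6 for pairs within a line, and each counted as 1 replicate. In NRF2null-KYSE70, library 1 stood apart from the other two. Mitochondrial genes took 2.05%, 1.85% and 1.92% of reads in KYSE70 and 2.26%, 2.29% and 2.29% in NRF2null-KYSE70, with no overlap, and the part of this in the results was not tested. NFE2L2, the targeted gene, was lower in every NRF2null-KYSE70 library (log2 fold change -0.71, limma adjusted p = 9.37e-08), at 61.4% of the parental mean. All 7 squamous or general epithelial markers listed (TP63, KRT5, KRT6A, KRT14, SOX2, CDH1 and EPCAM) were expressed in both lines, although KRT14 was low, at 46.4 and 156 normalized counts. Of 14 marker genes of fibroblasts, endothelium and leukocytes, 4 had a mean count of at least 10 over the 6 libraries and entered the test, and COL1A2, DCN, KDR and MS4A1 had no read in any library. The summed level of those marker lists reached at most 1618, 450 and 58.2 normalized counts in a library, in that order, against at least 247768 for the 7 squamous or epithelial markers. The tested ones differed between the lines, with COL1A1 and COL3A1 lower and VWF and PTPRC higher in NRF2null-KYSE70, and their part in the results was not tested. In bulk RNA, fewer cells with a transcript and less transcript per cell cannot be told apart.

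Values are normalized counts, that is, the reads of a gene after each library was scaled by its own size factor. Fold changes give NRF2null-KYSE70 relative to KYSE70 as log2(normalized count + 1), and limma tested them over the 15994 genes whose mean reached 10, with Benjamini-Hochberg adjustment. All 10 desmosome genes passed the filter, and all 10 had an adjusted p under 0.05, against 57.6% of all genes tested. By direction, 8 were lower, against 28.3% of all genes, and 2 were higher, against 29.3%. With the study's added cut-off of an absolute log2 fold change of 1, none of the 10 passed, against 14.7% of all genes (7.23% higher and 7.43% lower). For 9 of the 10 genes the lines shared no part of their range, against 63.4% of all genes. The median log2 fold change of the 10 was -0.34, and the median over all genes was -0.01. In absolute terms the medians were 0.35 and 0.36. Well-expressed genes are called more easily. Of the 2796 genes with a mean of at least 5000, which include all of the 10 but DSC2, 70.9% had an adjusted p under 0.05 and 6.04% also passed the fold cut-off.

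**Figure D1:**
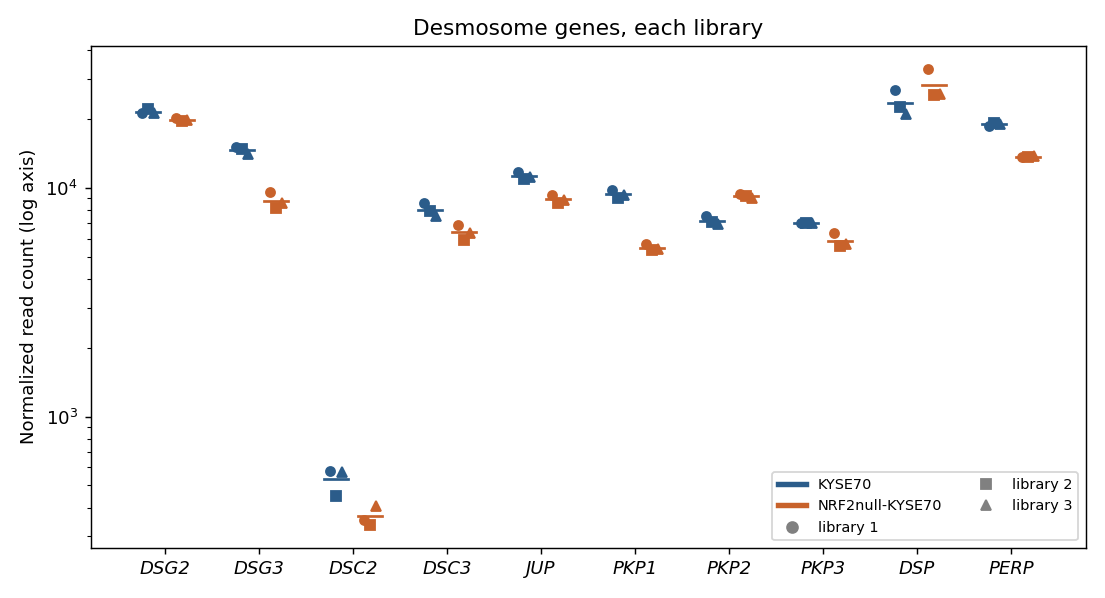
Normalized read count (log axis) of the 10 desmosome genes in each of the 6 libraries, with KYSE70 in blue, NRF2null-KYSE70 in orange, a marker shape for each library and a bar at the mean of each line. DSC2 lies far below the other 9 genes, and DSP is the gene whose libraries overlap between the lines.

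DSG3, a desmoglein of stratified squamous epithelium and the main autoantigen of pemphigus vulgaris, is encoded at 31447741 to 31478702 on chromosome 18 (hg38). Its normalized counts were 15046, 14871 and 14113 in KYSE70 and 9637, 8212 and 8581 in NRF2null-KYSE70. Every NRF2null-KYSE70 library was well below every KYSE70 library. The means were 14677 ± 496 and 8810 ± 739.6 (SD, n = 3 in each), which is -0.74 as a log2 fold change (limma, SE 0.059, adjusted p = 3.32e-07). Of all genes tested, 24.5% had a larger absolute change.

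DSG2, the desmoglein found in all desmosome-bearing epithelia, lies on the same chromosome from 31498177 to 31549008. It had 21332, 22192 and 21185 normalized counts in KYSE70 and 20194, 19598 and 19743 in NRF2null-KYSE70. The 2 sets did not overlap, but they lay close together, and the mean of the clone was 92.0% of the parental mean. The log2 fold change of -0.12 (95% interval -0.21 to -0.03, limma adjusted p = 0.0301) was the smallest of the 10, and 80.7% of all genes had a larger absolute change. This call was lost when KYSE70 library 1, 2 or 3 was left out (adjusted p = 0.0591, 0.131 and 0.0549) and without NRF2null-KYSE70 library 2 or 3 (0.0951 and 0.0796), at log2 fold changes from -0.13 to -0.10.

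DSC3, the desmocollin of stratified epithelium, lies on the minus strand of chromosome 18 from 30989365 to 31042815. It had 8610, 7955 and 7548 normalized counts in KYSE70 and 6896, 5927 and 6353 in NRF2null-KYSE70. The lines did not overlap, and the clone kept 79.5% of the parental mean (log2 fold change -0.33, SE 0.064, limma adjusted p = 0.000697). DSC2, the desmocollin with the widest tissue range, lies next to it from 31058840 to 31102522. Its normalized counts were 580, 449 and 575 in KYSE70 and 354, 336 and 408 in NRF2null-KYSE70, so it was the only 1 of the 10 genes with under 1000 counts in every library. The clone kept 68.5% of the parental mean, with a log2 fold change of -0.54 and the widest 95% interval of the 10, from -0.82 to -0.27 (limma adjusted p = 0.00271).

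The cadherin genes share a cluster on chromosome 18 with DSC1, DSG1 and DSG4, the forms of upper and cornified layers. DSC1 was scarce, with 130 reads in all in the KYSE70 libraries and 87 in those of NRF2null-KYSE70 (limma adjusted p = 0.285). DSG1 had 2 and 14 reads and DSG4 had 0 and 1 read in the same order, and neither entered the test. Neighbouring genes within 10 Mb of the cluster lay near 0, with a median log2 fold change of 0.01 around the desmocollins (44 genes) and -0.004 around the desmogleins (43 genes). In RPM, reads scaled to a common library total, the 4 cadherins together took 801, 803 and 763 in KYSE70 and 615, 570 and 590 in NRF2null-KYSE70. The cadherin total was thus lower in every library of the clone, at 75.0% of the parental mean. Antisense genes overlap this cluster, and the strand setting of the counting was not given in the sources used here, but DSG2-AS1 and DSCAS had at most 6 and 4 reads in a library.

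PKP1, the plakophilin of the suprabasal plaque that clusters desmosomal cadherins and binds desmoplakin, is encoded at 201283452 to 201332993 on chromosome 1. Its normalized counts were 9765, 9076 and 9319 in KYSE70 and 5675, 5361 and 5408 in NRF2null-KYSE70. The values within a line were close together and those of the lines far apart. The log2 fold change of -0.78 (limma, SE 0.049, adjusted p = 3.4e-08) was the largest fall of the 10, and 23.1% of all genes had a larger absolute change.

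PKP2, the plakophilin of simple epithelium and heart, lies on the minus strand of chromosome 12 from 32790745 to 32896798 and went the other way. It had 7510, 7128 and 6975 normalized counts in KYSE70 and 9388, 9181 and 9069 in NRF2null-KYSE70. Each library of the clone was above each parental library, which is 0.36 as a log2 fold change (limma, SE 0.047, adjusted p = 2.97e-05). Among its 46 neighbours within 10 Mb the median log2 fold change was 0.18. After its subtraction, with the SE left unchanged, the PKP2 difference was 0.18 (limma adjusted p = 0.00629). An unnamed gene on the same strand (ENSG00000274976) shares 424 exon bases with PKP2 and had 4 to 31 reads in a library.

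PKP3, which joins nearly all desmosomal proteins and is present throughout the layers, lies near the end of chromosome 11 from 392614 to 404908. Its normalized counts were 7019, 7009 and 7011 in KYSE70 and 6330, 5569 and 5718 in NRF2null-KYSE70. The parental libraries were almost equal and the clone was lower in each library, at 83.7% of the parental mean (log2 fold change -0.26, SE 0.054, limma adjusted p = 0.00122). JUP (plakoglobin), on chromosome 17 from 41754604 to 41786931, also takes part in adherens junctions. It had 11804, 10922 and 11206 normalized counts in KYSE70 and 9327, 8586 and 8847 in NRF2null-KYSE70. Again the lines did not overlap, and the clone kept 78.9% (log2 fold change -0.34, SE 0.050, limma adjusted p = 6.91e-05).

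**Figure D2:**
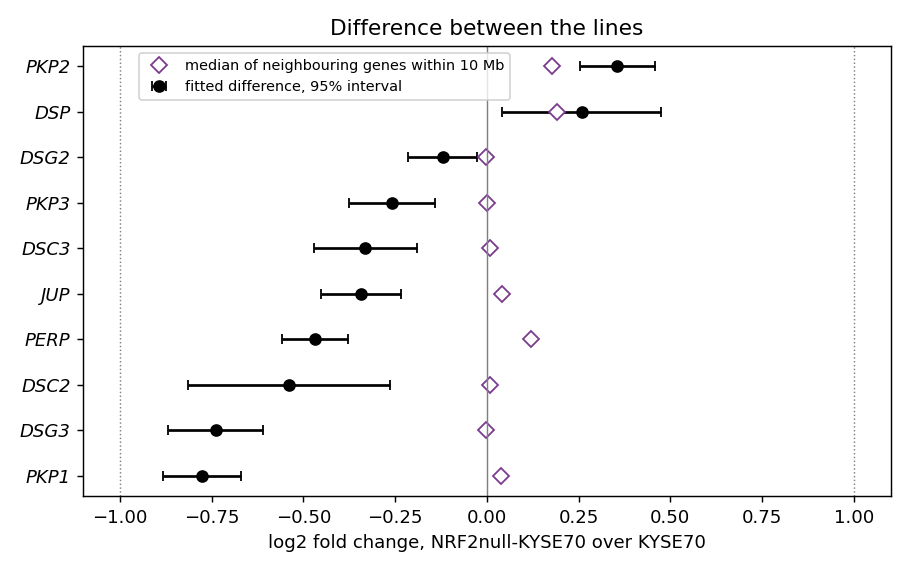
Log2 fold change (NRF2null-KYSE70 over KYSE70) of each desmosome gene with its 95% interval (black), and the median log2 fold change of protein-coding neighbours within 10 Mb (open diamonds). Dotted lines mark a log2 fold change of 1 in either direction, which no gene reaches, and the neighbours of PKP2 and DSP lie above 0, at 0.18 and 0.19.

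DSP (desmoplakin), the obligate link from the plaque to keratin, is encoded at 7541338 to 7586714 on chromosome 6. Its normalized counts were 26834, 22688 and 21119 in KYSE70 and 33236, 25566 and 25881 in NRF2null-KYSE70. KYSE70 library 1 exceeded 2 of the 3 libraries of the clone, so the lines overlapped. The means of 23547 ± 2953 and 28228 ± 4340 (SD, n = 3 in each) corresponded to a log2 difference of 0.26 (SE 0.10, limma adjusted p = 0.0422). This call was lost in 11 of 17 alternatives, among them DESeq2 (0.167), total scaling (0.124) and the subtraction of the median of 63 neighbouring genes, which left 0.07 (0.599). It was also lost without NRF2null-KYSE70 library 1 (log2 fold change 0.13, adjusted p = 0.0823), KYSE70 library 2 (0.23, 0.144) or KYSE70 library 3 (0.18, 0.18). Its exons share 81 bases with those of the antisense gene DSP-AS1, which had 99 to 160 reads in a library.

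Library 1 of each line was the high one for DSP, and also for long transcripts as a group. Long transcripts were taken as those of 8000 bases or more in the canonical annotation, among protein-coding genes whose mean reached 100, which gave 1039 genes. The canonical DSP transcript has 9697 bases. Relative to the line mean, the median long transcript deviated by 0.05, 0.01 and -0.06 (log2) in KYSE70 libraries 1 to 3 and by 0.12, -0.06 and -0.06 in those of NRF2null-KYSE70. DSP deviated by 0.20, -0.05 and -0.15 and by 0.25, -0.13 and -0.11 in the same libraries. The library with the highest long transcripts in each line thus also had the highest DSP, and the part of this in the DSP difference was not tested. The desmosome genes did not order by length in NRF2null-KYSE70 library 1. DSC2, with the longest canonical transcript (12331 bases), deviated by -0.04 there, and PKP3, with the shortest (2817 bases), by 0.11. In KYSE70 library 1 the longest genes, DSP, DSC2 and DSC3, had the highest deviations (0.20, 0.13 and 0.10), and PKP3 had 0.001. The part of length in these values was not tested.

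**Figure D3:**
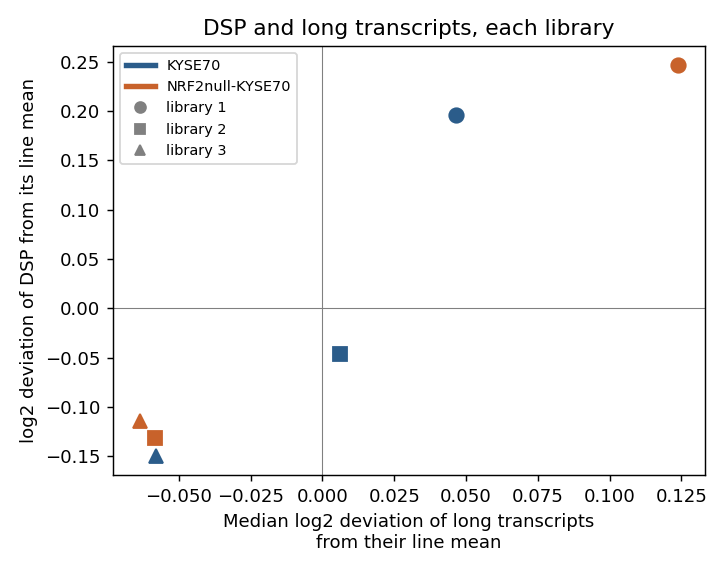
Log2 deviation of DSP from its line mean (vertical axis) against the median log2 deviation of 1039 long transcripts (horizontal axis) in each of the 6 libraries, with KYSE70 in blue and NRF2null-KYSE70 in orange. Library 1 of each line lies at the upper right, at 0.20 and 0.25 for DSP.

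PERP lies on the minus strand of chromosome 6 from 138088505 to 138107419, far from DSP. It had 18762, 19189 and 18967 normalized counts in KYSE70 and 13725, 13634 and 13756 in NRF2null-KYSE70. Relative to the mean these were the tightest values of the clone, with a coefficient of variation of 0.463%, and the lines were far apart. The clone kept 72.2% of the parental mean (log2 fold change -0.47, SE 0.041, limma adjusted p = 7.82e-07). The 50 neighbouring genes had a median log2 fold change of 0.12. TP63, which encodes p63, the factor that PERP responds to in squamous cells, had a log2 fold change of -0.92 (limma adjusted p = 3.63e-09). The part of TP63 in the PERP difference was not tested.

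Levels were compared between genes as normalized counts per kilobase of exon. In KYSE70, PERP stood highest at 4520 ± 50.9 per kilobase (SD, n = 3). DSG3 at 2631 ± 88.8, JUP at 2289 ± 91.1 and DSG2 at 2272 ± 57.3 came next, and the libraries of JUP and DSG2 overlapped. PKP3, DSP and PKP1 followed at 1848, 1729 and 1511, with DSP overlapping both of the others. DSC3 at 1044, PKP2 at 700.3 and DSC2 at 42.8 were separate from each other. In NRF2null-KYSE70, PERP remained first at 3265 ± 15.1, DSG2 (2091) and DSP (2073) overlapped in second place, and DSG3 (1579) was below JUP (1805). PKP2 at 895 overlapped PKP1 at 882 in the clone, whereas in KYSE70 every PKP1 library was above every PKP2 library. DSC2 was last in both lines.

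This order depended on which exons counted as the gene's length, since unused exons make a gene seem lower. With the canonical transcript in place of all annotated exons, a choice made after seeing the data, DSG2 rose above DSG3 in KYSE70 (3786 against 2631 per kilobase) and stood first in NRF2null-KYSE70 (3483 against 3265 for PERP). PKP2 then overlapped PKP1 in KYSE70 (1704 and 1762) and lay above it in NRF2null-KYSE70 (2178 and 1029). Among the desmogleins, DSG3 made up 53.6% ± 0.780 of the summed level per length in KYSE70 but 43.0% ± 1.65 in the clone (SD, n = 3 in each), or 41.0% and 31.2% with the canonical lengths. Among the plakophilins, PKP1 made up 37.2% ± 0.673 and 26.5% ± 0.348 and PKP2 17.2% ± 0.375 and 27.0% ± 0.792 (SD, n = 3 in each). With the canonical lengths these became 29.6% and 19.5% for PKP1 and 28.6% and 41.2% for PKP2. The PKP3 share, 45.5% and 46.5% with overlap, became 41.8% and 39.4% without overlap. The share of DSC3 in the desmocollins was 96.1% and 96.6%.

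The balance between pairs of genes was compared as a ratio within each library, which does not depend on scaling. The counts were not divided by gene length. Length therefore affects where a ratio lies relative to 0, but not its difference between the lines. The log2 ratio of PKP1 to PKP2 was 0.38, 0.35 and 0.42 in KYSE70 and -0.73, -0.78 and -0.75 in NRF2null-KYSE70, so PKP1 had more reads than PKP2 in every parental library and fewer in every library of the clone. This was the largest difference of the 6 ratios, -1.13 on the log2 scale. For DSG3 over DSG2 the ratio went from -0.56 ± 0.045 to -1.17 ± 0.097 (SD, n = 3 in each), a difference of -0.62. PKP3 over PKP2, PKP1 over PKP3 and JUP over DSP differed by -0.61, -0.52 and -0.60, each with no overlap between the lines. DSC3 over DSC2 differed by 0.21, with overlap (exact permutation p = 0.3), and by 0.11 without KYSE70 library 3, 0.13 without NRF2null-KYSE70 library 1 and 0.32 without KYSE70 library 2. With 3 libraries against 3, the smallest p that an exact two-sided permutation test allows is 0.1, which the other 5 ratios had, or 0.12 adjusted over the 6, so no ratio could pass a threshold of 0.05. The JUP to DSP ratio carries the spread of DSP between libraries described above.

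**Figure D4:**
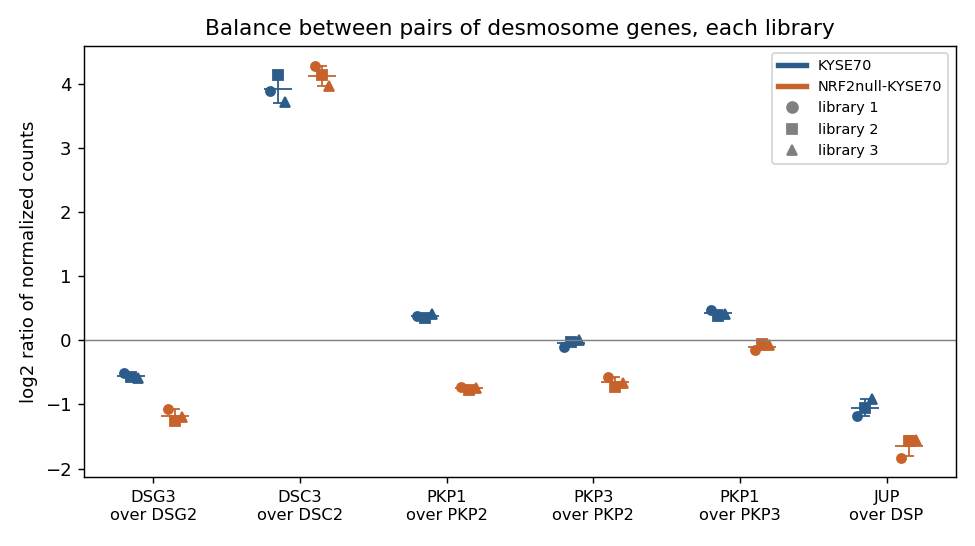
Log2 ratio of normalized counts, not divided by gene length, for 6 pairs of desmosome genes in each library. The mean and SD of each line are shown (KYSE70 blue, NRF2null-KYSE70 orange). PKP1 over PKP2 lies above 0 in KYSE70 and below 0 in NRF2null-KYSE70, and DSC3 over DSC2 overlaps between the lines.

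As a share of all reads, the 10 genes together took 2237, 2146 and 2075 RPM in KYSE70 and 1903, 1706 and 1746 in NRF2null-KYSE70. The clone was thus lower in each library, at 82.9% of the parental mean. The 5 plaque genes took 1029 ± 67.7 and 964 ± 83.9 RPM (SD, n = 3 in each), values that overlapped, whereas those of the cadherins did not. Of these 5, DSP had the most counts and alone overlapped between the lines. JUP, PKP1, PKP2 and PKP3 each separated, with PKP2 higher in the clone and the others lower.

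Related genes were compared in lists written from general knowledge. Their counts stand against the same shares of all genes tested, 29.3% higher, 28.3% lower and 57.6% in either direction, and no list was tested against the others or against the desmosome genes. Of the other desmosome family genes, PKP4, a plakophilin relative of cell junctions, rose from 5100 ± 219 to 6188 ± 364 normalized counts (SD, n = 3 in each; log2 fold change 0.28, limma adjusted p = 0.000911). PNN (pinin), a protein linked to desmosomes and to splicing, had 9330 and 10196 (adjusted p = 0.149). CDSN, the gene of corneodesmosin, had no read in any library.

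Adherens junctions, the cadherin junctions coupled to actin, had changes in both directions. Of 12 genes tested, 6 were higher and 4 lower in NRF2null-KYSE70, with a median log2 fold change of 0.29. CDH1 (E-cadherin), the classical epithelial cadherin, rose from 6425 ± 421 to 9787 ± 955.7 normalized counts (SD, n = 3 in each; log2 fold change 0.60, limma adjusted p = 9.45e-06), and CDH2 (N-cadherin) rose by 1.30 on the log2 scale. NECTIN3 fell by 1.58 on the log2 scale. CTNNB1, whose product beta-catenin is the closest relative of plakoglobin, had a log2 fold change of -0.78, and its neighbours within 10 Mb had a median of -0.58.

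The filaments and linkers that meet the desmosome were also mixed. Of 10 keratins tested, 5 were higher and 3 lower, and 4 were higher by DESeq2, by edgeR or without the filter. KRT5, the main basal keratin and the gene with the most reads in the list, had a log2 fold change of -0.75, and its neighbours on chromosome 12 had a median of -0.51. Among the keratins with many reads, KRT8 also fell, with a log2 fold change of -0.72, and KRT6A rose by 0.69. The neighbours of each had a median of -0.51. The scarce KRT7 and KRT14 rose from 12.1 and 46.4 normalized counts to 58.2 and 156. The KRT7 call was lost by limma without the trend (adjusted p = 0.0510). KRT19 had 8.65 and 24.4 (limma adjusted p = 0.0381), a call that was lost by DESeq2 (0.0541) and edgeR (0.0606). It was also lost without KYSE70 library 1 (0.0530) or 2 (0.124) and without NRF2null-KYSE70 library 2 (0.105) or 3 (0.0636). Of 5 plakins and cytolinkers, 3 were higher and 1 lower, with PLEC (plectin) and MACF1 higher by 1.36 and 1.33 on the log2 scale. These transcripts are long as well, and without NRF2null-KYSE70 library 1, where they were highest, the changes were 1.15 and 1.13. The neighbours of PLEC within 10 Mb had a median of 0.48, and its change was 0.88 after that was subtracted, under the fold cut-off.

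Genes with a part in desmosome assembly and turnover showed 7 of 12 higher and none lower in NRF2null-KYSE70 (limma), a share in either direction near the 57.6% of all genes, while 1 gene, FLOT2, came near the threshold on the lower side (adjusted p = 0.0582). DESeq2 and edgeR also gave 7 higher and none lower. ADAM10, a protease that sheds cadherin ectodomains, rose from 8040 ± 359.5 to 19090 ± 1490 normalized counts (SD, n = 3 in each; log2 fold change 1.25), where neighbouring genes had a median of 0.46. Of 12 transcription factors of epithelial junction genes that were tested, 5 were lower and 2 higher, also near the 57.6% of all genes in either direction, with a median log2 fold change of -0.39. Besides TP63, these included GRHL3, a factor of late epidermal differentiation, with -1.20, and ZEB1, a repressor of epithelial genes, with -1.25 from a low level of 58.4 normalized counts.

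**Figure D5:**
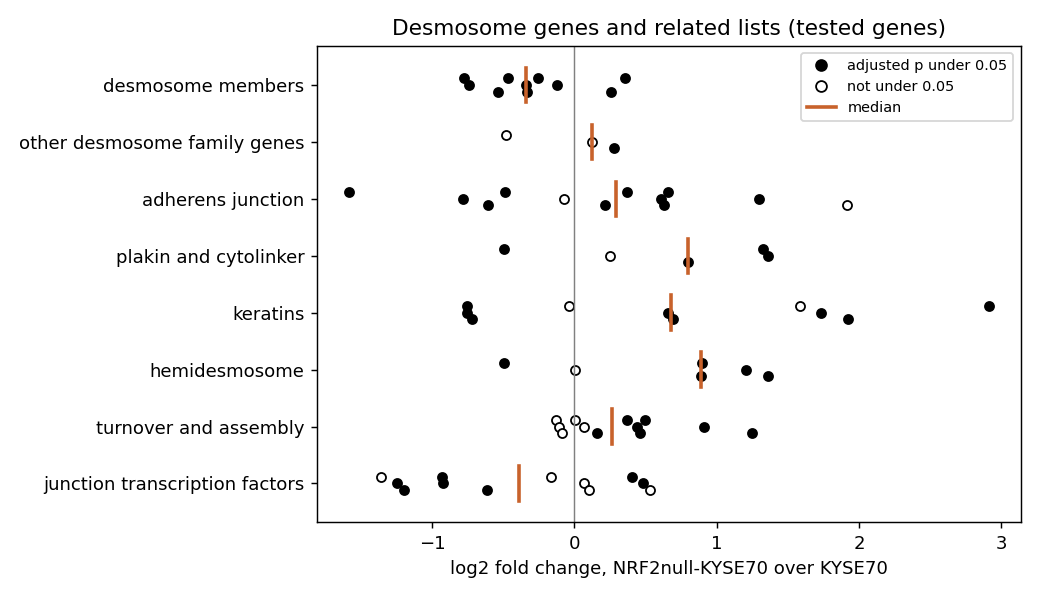
Log2 fold change (NRF2null-KYSE70 over KYSE70) of the desmosome genes and of the tested genes in 7 related lists, with filled points for an adjusted p under 0.05 and an orange bar at the median. The desmosome genes lie between -0.78 and 0.36 with a median of -0.34, and the adherens junction genes spread from -1.58 to 1.92. The upper end is CDH3, which was scarce (7.84 and 29.1 normalized counts) and was not called (limma adjusted p = 0.0682).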

How the data were processed

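The members and gene lists were chosen with earlier results of these data known. Per the study's methods and the labels, the authors aligned reads with STAR (2.6.90c) to hg38, assigned them to genes with featureCounts (1.5.1) and normalized with DESeq2. The deposited values are a signal in normalized counts. They were whole multiples of 1 read for 100% of values (tolerance 0.01 read), so reads were recovered from them. The column names gave only the line, and library numbers follow the order of the columns.

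Differences were fitted with limma 3.58.1 (mean-variance trend) on log2(normalized count + 1) for 15994 genes with a mean of at least 10, in R 4.3.3. Over all of them limma called 9206 genes at an adjusted p under 0.05, DESeq2 1.42.0 on recovered reads 9202 and edgeR 4.0.16 9201. Scripts were tested on simulated data. Ratios were compared by exact permutation with scipy 1.17.1. Positions, exons and lengths came from GENCODE v44 (hg38), which held 58472 of the identifiers. All 10 members are named, plus from each list the genes past both cut-offs (at most 3 in each direction), the other desmosome family genes, TP63, CDH1, CTNNB1, KRT5 and NFE2L2. FLOT2, KRT8, KRT6A, CDH3 and the markers were named after their values were seen. The alternatives tried were another pseudocount (0.1 or 5), another filter (none, or a mean of 50), TMM, total and quantile scaling, no trend, DESeq2, edgeR, each library left out, and subtraction of the median of neighbours within 10 Mb. That subtraction kept the SE of the main fit, so its p-values leave out the uncertainty of the median.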

Additional observations from a re-analysis of the deposited data

How the results depend on the processing

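Over 17 alternatives, between 8 and 10 of the 10 desmosome genes had an adjusted p under 0.05 and none passed the fold cut-off. With 15994 genes tested, the number called over all genes ran from 8160 (without KYSE70 library 2) to 9345 (total scaling). It was 9261 of 28451 with no filter and 8415 of 13004 at a mean of 50. DSG3, PKP1, PERP, JUP, DSC3, DSC2, PKP3 and PKP2 kept their direction and an adjusted p under 0.05 in all 17, and no gene changed direction. DSG2 lost its call in 7, including no filter (0.0654) and limma without the trend (0.0757). DSP lost it in 11, including a pseudocount of 0.1 (0.0507), no filter (0.0503), TMM scaling (0.0530), quantile normalization (0.289) and limma without the trend (0.188). The median log2 fold change of the 10 moved from -0.34 to -0.41 under total scaling and to -0.44 under quantile normalization. The cause was not tested. The 6 ratios moved by less than the SD between libraries under the other pseudocounts and when a library was left out. Over no filter, a mean of 50, DESeq2 and edgeR, the called keratins numbered 6 to 7 (8 in the main test) and the adherens junction genes 10 to 11 in all. At a mean of 50, 3 keratins were called higher, and KRT7, KRT16 and KRT19 were under the filter and not tested. No paired analysis was possible because columns were named by line alone and could not be matched to the numbered samples. Depth limits DSC1, DSG1 and DSG4.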

Other observations

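Hemidesmosomes, which fasten basal cells to the basement membrane, share the plakin family with desmosomes. Of 6 genes tested, 4 were higher and 1 was lower in NRF2null-KYSE70, with a median log2 fold change of 0.89, against 29.3% higher and 28.3% lower among all genes tested. The list was not tested as a group. COL17A1, a transmembrane collagen of the hemidesmosome, had 56182 ± 3119 normalized counts in KYSE70 and 129726 ± 14407 in the clone (SD, n = 3 in each; log2 fold change 1.20), and PLEC rose by 1.36 on the log2 scale, by 1.15 without NRF2null-KYSE70 library 1 and by 0.88 after the median of its neighbours was subtracted.

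Of 4 genes used as markers of a mesenchymal state, VIM (vimentin) and CDH2 were higher, with log2 fold changes of 1.20 and 1.30, and ZEB1 was lower. FN1 had 18.0 and 15.8 normalized counts (limma adjusted p = 0.930). VIM was scarce in both lines, at 111 and 254 normalized counts.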
